A study of Mus musculus with 18 samples.

Results

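Th17 cells without the glucose transporter GLUT3 were compared with Th17 cells without ATP citrate lyase (ACLY), both cultured without acetate. The comparison used 3 GLUT3KO and 3 ACLYKO libraries, chosen by their labels, which are 6 of the 18 libraries of the series. Per the labels the GLUT3KO cells were Slc2a3-fl/fl Cd4-cre and the ACLYKO cells Acly-fl/fl Cd4-cre, so in both a Cre driven by Cd4 removes the floxed gene in developing T cells. Naive CD4+ T cells had been activated through CD3 and CD28 with Th17-polarizing cytokines for 48 h and kept for another 24 h. A restimulation of 5 h by PMA plus ionomycin followed, with the secretion blockers Bref A and monensin added. The WT libraries, given the same culture per the labels, are set beside the knockouts as levels and are not tested here. The labels name no separate mice or cultures behind the replicates, so the p-values speak only of how libraries vary, which can be technical. That variation was estimated over all 18 libraries.

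GLUT3 carries glucose across the plasma membrane of lymphocytes, and part of that glucose carbon reaches the mitochondria and leaves them again as citrate. ACLY splits this citrate in the cytosol and nucleus into acetyl-CoA, the donor for histone acetylation and the building block of fatty acids and sterols. The transporter and the enzyme thus stand at both ends of a single route from glucose to acetyl-CoA. Setting their losses side by side shows where cells lacking this transporter differ from cells lacking this enzyme. Glucose entry itself is not measured by these RNA data, and another transporter gene, Slc2a1, was still transcribed in both knockouts (given below). Th17 cells are a helper T cell type named for its cytokine interleukin-17.

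Levels are TPM, transcript abundances per length that sum to the same total in each library, and a difference is the GLUT3KO minus the ACLYKO mean of log2(TPM + 1) with its standard error, so that a positive value means more in GLUT3KO and changes of low genes are understated. A gene was called where limma, fitted over all 18 libraries, gave a Benjamini-Hochberg adjusted p under 0.05 among 14229 tested genes. The 6 libraries held 18.7 to 27.7 M reads in genes, and 1 read on 2000 bases of exon was worth 0.0428 to 0.0719 TPM. ACLYKO replicate 1 stood apart: 31.2% of the tested genes lay more than 1 log2 unit from both other ACLYKO libraries there, against 0.52% to 4.64% in the other 5 libraries, and of all 18 libraries it had the highest score on the first principal axis of the deviations from group means. Named genes whose call changes without it are given with that value. Scores on this axis ran from -53.5 to 90.2 in ACLYKO and from -1.99 to 2.22 in GLUT3KO with acetate. The groups thus differed in the spread that the fit shares among them. Cd4 was at 191, 174 and 199.5 TPM in GLUT3KO and 184, 181 and 153 in ACLYKO. The 14 myeloid and dendritic markers summed to 4.76 to 5.29 TPM in GLUT3KO and 4.74 to 10.2 in ACLYKO. C1qa, C1qb and C1qc were at 0 in all 6 libraries, and of the 2 tested markers Cd14 was called higher in GLUT3KO and Cd68 in ACLYKO. Summed B cell markers were 19.0 to 21.6 TPM in GLUT3KO and 9.29 to 14.1 in ACLYKO, with Ighm the largest in each library. Of the 3 tested B cell markers Ighm was called higher in GLUT3KO and 1 other higher in ACLYKO, with a median difference of -0.23.

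Acly separated the groups. It was at 725, 604 and 709 TPM in the GLUT3KO libraries and 7.01, 14.4 and 12.6 in the ACLYKO libraries (chr11:100476352-100528000 in GRCm38.p6; log2 difference 5.84 ± 0.22, adjusted p = 1.29e-10). WT libraries had 400.3, 395 and 392 TPM, so that GLUT3KO lay above and ACLYKO far below them. Slc2a3, the gene of GLUT3 (chr6:122727809-122802363), was at 4.0, 6.31 and 8.2 TPM in GLUT3KO, 5.76, 13.1 and 11.7 in ACLYKO and 14.4, 19.8 and 19 in WT. The GLUT3KO libraries were all below WT but overlapped ACLYKO replicate 1, and the difference between the knockouts was not called (log2 difference -0.62 ± 0.28, adjusted p = 0.0939). It was called higher in ACLYKO without ACLYKO replicate 1 (-0.95, adjusted p = 0.00515), with median-ratio scaling (-0.76, adjusted p = 0.0233), with quantile normalization (-0.81, adjusted p = 0.00985) and with the GC and length correction (-0.88, adjusted p = 0.0352). Reads of exons outside the deleted part also count toward this gene, and the floxed exons are not named by the labels. Slc2a1 (GLUT1), the transporter of most activated cells and the Slc2a gene with the highest TPM in both knockouts, was at 118, 117 and 107 TPM in GLUT3KO and 50.5, 139 and 136 in ACLYKO and was not called (adjusted p = 0.58). Without ACLYKO replicate 1, its lowest library, it was called higher in ACLYKO (-0.27, adjusted p = 0.0359). Acss1 and Acss2, which make acetyl-CoA from acetate, were not called either (adjusted p = 0.101 and 0.184), and Acss2 stood at 3.76, 4.54 and 6.59 against 4.71, 8.13 and 6.72 TPM. Acss2 was called higher in ACLYKO without ACLYKO replicate 1 (-0.52, adjusted p = 0.0264), with median-ratio scaling (-0.48, adjusted p = 0.0184) and with quantile normalization (-0.49, adjusted p = 0.00954).

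In all, 5746 of the 14229 tested genes (40.4%) were called, 3581 higher in GLUT3KO (25.2%) and 2165 higher in ACLYKO (15.2%). Their split depends on scaling. The median difference of all tested genes was 0.10, and it was -0.03 with median-ratio scaling, under which 3117 genes were higher in GLUT3KO and 2882 in ACLYKO. The called genes named below kept their sign under median-ratio and quantile scaling. A difference of at least 1 was reached by 2718 called genes (19.1% of those tested), 1921 of them higher in GLUT3KO and 797 in ACLYKO. The 3 and 3 libraries did not overlap for 5816 genes (40.9%), and they did not overlap for any called gene named below. A fit of the 6 libraries alone called 2440 genes, 1702 higher in GLUT3KO and 738 in ACLYKO. Of the 127 called genes named in the text, 20 lost their call there. Without ACLYKO replicate 1 the calls were 3824 and 3458.

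**Figure D1:**
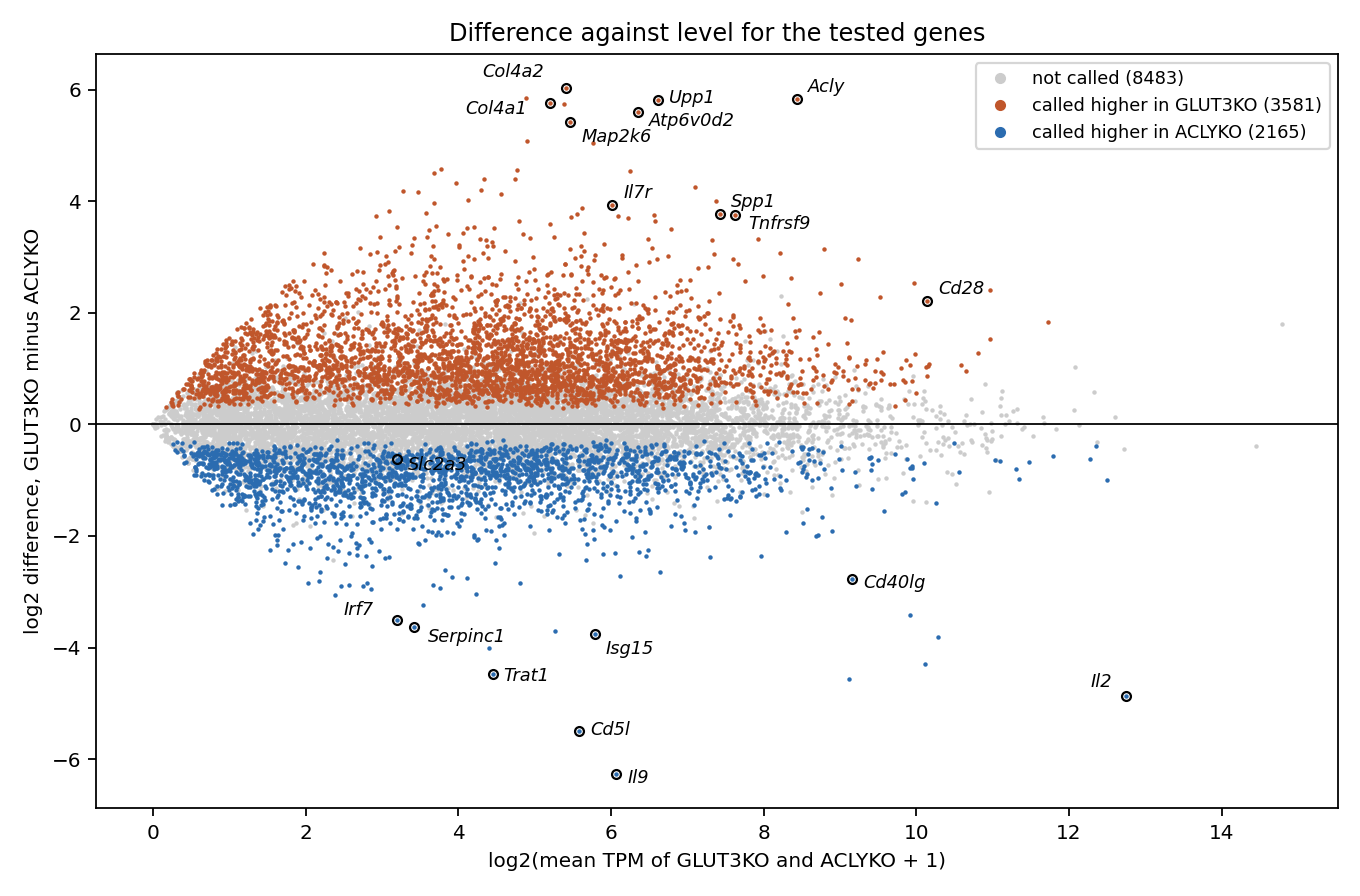
Each point is a tested gene, with the log2 of its mean TPM over the 6 libraries plus 1 on the x axis and the log2 difference GLUT3KO minus ACLYKO on the y axis. Orange points were called higher in GLUT3KO (3581), blue points higher in ACLYKO (2165), and circled genes are described in the text. Il2 is the most abundant of the genes far below zero, and Acly, Upp1 and the collagen genes Col4a1 and Col4a2 are among the points at the top.

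Cytokine genes split into those that ACLYKO cells transcribed more and those that GLUT3KO cells transcribed more. Of 34 tested cytokine and chemokine genes 12 were called higher in GLUT3KO and 8 higher in ACLYKO, with a median difference of 0.27. Without ACLYKO replicate 1 the counts were 11 and 10 and the median -0.054, so that the sign of the median rests on that library. Of all 14229 tested genes 3824 and 3458 were called in that setting. Fewer cells of a kind and less RNA per cell cannot be told apart in bulk libraries, here and throughout.

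Il2, the growth factor of activated T cells (chr3:37120713-37125954), was among the most abundant transcripts of ACLYKO cells. It was at 425, 534 and 342 TPM in GLUT3KO and 19694, 8466 and 11709 TPM in ACLYKO. All ACLYKO libraries were above all WT libraries (4017, 6356 and 5861 TPM) and all GLUT3KO libraries below them, with a 30.6-fold ratio of the knockout means (log2 difference -4.87 ± 0.32, adjusted p = 2.79e-08). Il9, the signature cytokine of Th9 cells (chr13:56479277-56482257), was nearly silent at 0.546, 0.979 and 0.525 TPM in GLUT3KO against 181, 104 and 111 in ACLYKO (log2 difference -6.27 ± 0.25, adjusted p = 3.01e-10). WT cells had 1.37, 2.49 and 1.17 TPM of Il9, so ACLYKO lay far above WT and GLUT3KO below it. The anti-inflammatory Il10 was at 16.8, 38.3 and 31.5 TPM in GLUT3KO and 123, 150.3 and 162 in ACLYKO (log2 difference -2.36 ± 0.25, adjusted p = 3.68e-06), again with ACLYKO above the WT level of 40.7 ± 1.54 (SD, n = 3). Tnf followed with 378, 348 and 399 against 704, 1404 and 1350.2 TPM (-1.55, adjusted p = 0.000129). The neutrophil attractant Cxcl2 was below WT (36.8 ± 9.28) in both knockouts and higher in ACLYKO, at 17.5, 18.7 and 14.9 TPM against 3.31, 2.39 and 3.72 (-2.13, adjusted p = 9.39e-05).

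The opposite set was led by Ifng, the signature cytokine of Th1 cells, at 554, 1138 and 938 TPM in GLUT3KO and 91.5, 166 and 206 in ACLYKO. No library overlapped (log2 difference 2.51 ± 0.37, adjusted p = 7.00e-05), and both knockouts lay above WT (34.2, 59.4 and 38.9 TPM). Il21, a helper cytokine that Th17 cells also make, was at 2608, 2294 and 2741 TPM against 950.0, 1148 and 1034 (log2 difference 1.29 ± 0.21, adjusted p = 0.000191), with WT at 1705, 993 and 815, overlapping ACLYKO. Il22, which acts on epithelium, was at 5.97, 17.4 and 9.24 TPM in GLUT3KO and 0, 0.25 and 0.466 in ACLYKO (3.16, adjusted p = 5.02e-06). The hematopoietic growth factor Il3 was at 61.9, 104 and 101 TPM against 9.17, 12.6 and 14.5 (2.77, adjusted p = 3.93e-05), and in WT it matched GLUT3KO more than ACLYKO, at 55.8, 99.1 and 90.8 TPM. Osteopontin (Spp1), a matrix protein that also acts as a cytokine, reached 383, 295 and 281 TPM against 26.2, 21.4 and 19.9 (3.77, adjusted p = 6.30e-10). Its WT level of 6.07 ± 0.462 was below both knockouts. The macrophage growth factor Csf1 was at 31.9, 20.3 and 25 TPM against 1.87, 1.61 and 1.03 (3.41, adjusted p = 3.50e-09). The chemokine Xcl1, which draws cross-presenting dendritic cells, was at 1468, 1522 and 2094 TPM against 162, 376 and 387 (2.54, adjusted p = 2.72e-05). Il24, Il5, Il13 and Ccl3 were also called higher in GLUT3KO.

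The interleukin-17 genes did not move as a pair. Il17f was at 106, 104 and 105 TPM in GLUT3KO and 425, 195 and 249 in ACLYKO (log2 difference -1.37 ± 0.22, adjusted p = 0.000177), and WT had 867, 669.9 and 749.8. Every GLUT3KO library was below every ACLYKO library, and both knockouts were below WT. Il17a was at 91, 192 and 152 TPM in GLUT3KO and 38.2, 117 and 156 in ACLYKO, with overlapping libraries and no call (log2 difference 0.64 ± 0.39, adjusted p = 0.217), against 613, 599 and 703 in WT. Without ACLYKO replicate 3 it was called higher in GLUT3KO (1.04, adjusted p = 0.0417). Csf2, the gene of GM-CSF, was not called either, at 157, 87.2 and 110.0 against 189, 127 and 145 TPM (adjusted p = 0.282).

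**Figure D2:**
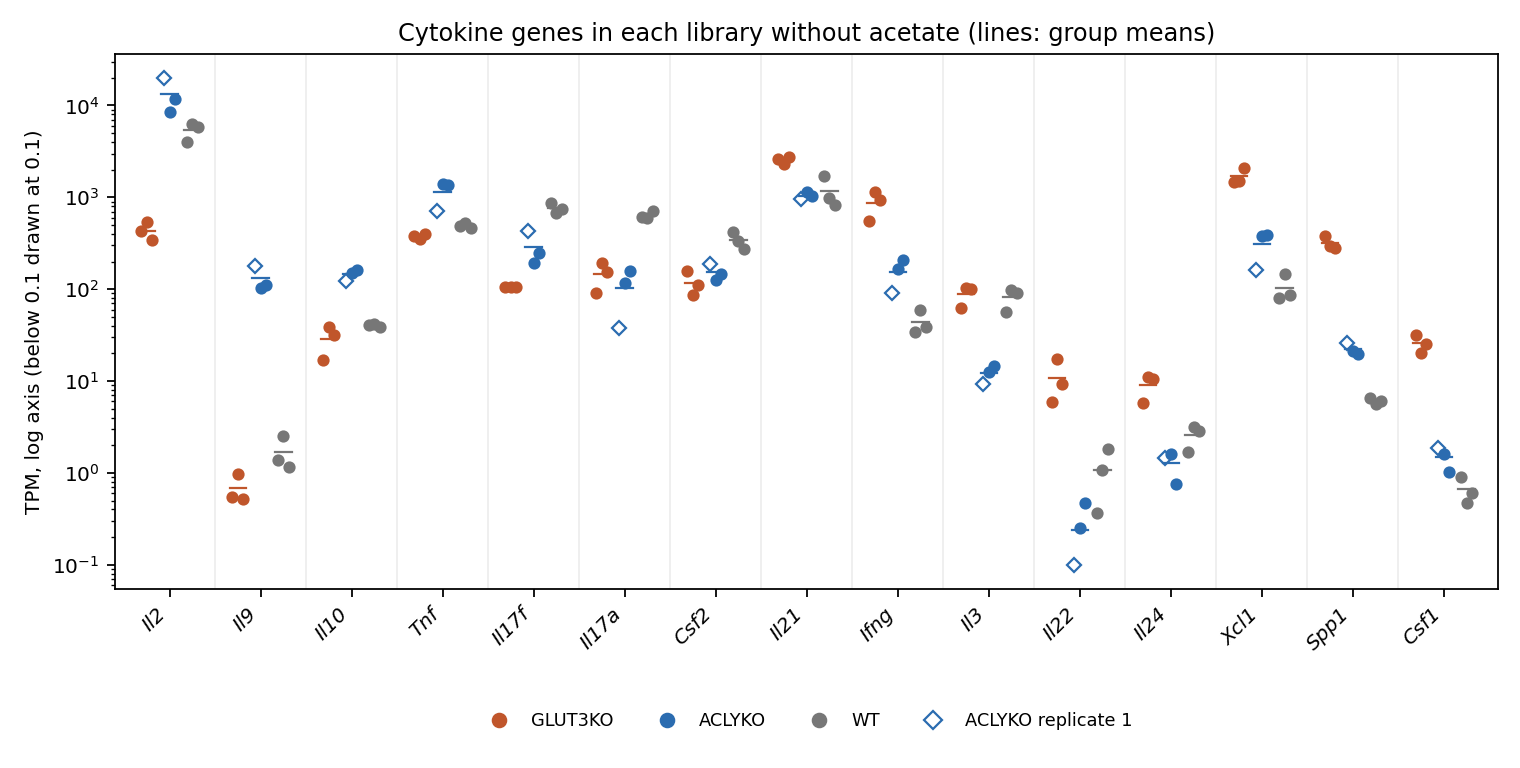
TPM of 15 cytokine genes on a log axis in each of the 3 GLUT3KO (orange), 3 ACLYKO (blue) and 3 WT (grey) libraries, with group means as lines and ACLYKO replicate 1 as an open diamond. Il2, Il9, Il10, Tnf and Il17f are higher in ACLYKO without overlap, Il21, Ifng, Il3, Il22, Il24, Xcl1, Spp1 and Csf1 are higher in GLUT3KO without overlap, and the knockouts overlap for Il17a and Csf2.

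Among Th17 lineage genes, several receptors and regulators were higher in GLUT3KO. Of 24 tested genes of this list 12 were called higher in GLUT3KO and 3 in ACLYKO (median 0.57). Without ACLYKO replicate 1 these counts were 12 and 6, where those of all 14229 tested genes were 3824 and 3458. Maf, a transcription factor of Th17 and interleukin-10-producing cells, was at 125, 150.0 and 137 TPM against 13.7, 7.83 and 8.32 (log2 difference 3.69 ± 0.22, adjusted p = 1.10e-08). WT was between the knockouts at 39.4 ± 5.64 (SD, n = 3). Il6ra, the interleukin-6 receptor, was at 55.1, 62.4 and 69.4 TPM against 6.44, 16.2 and 14.5 (2.33, adjusted p = 3.27e-06). The chemokine receptor Ccr6, which guides Th17 cells to mucosa, was at 64.3, 42.7 and 50.1 TPM against 16.5, 26.5 and 20.8 (1.26, adjusted p = 5.39e-05). For Il6ra GLUT3KO was above WT, and for Ccr6 it overlapped WT and ACLYKO was low. Il23r was low in both knockouts, at 4.16, 6.31 and 5.78 TPM against 1.69, 1.65 and 1.75, below WT at 12.2 ± 1.06 (1.24, adjusted p = 1.17e-05). Rora and Stat3 were also called higher in GLUT3KO, at 1.16 and 0.86. Ahr, the sensor of dietary and tryptophan-derived ligands, went the other way with 2.97, 2.91 and 3.95 TPM in GLUT3KO and 8.91, 8.18 and 7.33 in ACLYKO (-1.1, adjusted p = 0.000104).

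Th1 and cytotoxic genes were higher in GLUT3KO wherever they were called, in 9 of 17 tested members against 0 higher in ACLYKO (median 0.78). Tbx21, the gene of the Th1 master factor T-bet, was at 14.3, 23.3 and 24.9 TPM in GLUT3KO and 1.6, 3.42 and 3.54 in ACLYKO (log2 difference 2.51 ± 0.25, adjusted p = 1.76e-06), and WT was just above ACLYKO at 4.3 ± 0.401 (SD, n = 3). The interleukin-12 receptor chain Il12rb2 was at 25.6, 33.8 and 43.8 against 3.24, 1.94 and 2.36 TPM (3.32, adjusted p = 3.63e-07). Granzyme A (Gzma) stood at 13.6, 35.5 and 37.5 against 2.24, 2.62 and 2.9 TPM (2.93, adjusted p = 1.57e-05). The pore-forming perforin (Prf1) was at 13.6, 18.6 and 30.4 TPM against 2.09, 5.26 and 4.46 (2.14, adjusted p = 7.46e-05). For both genes GLUT3KO replicate 1 was the lowest of its group and above every ACLYKO library. Granzyme B (Gzmb) was at 157, 168 and 428 against 56.5, 58 and 52 TPM, and GLUT3KO replicate 3 was by far the highest (2.0, adjusted p = 0.00234). Markers of natural killer and gamma-delta T cells moved with this list: their sum over 7 genes was 47.0 to 117 TPM in GLUT3KO, 17.8 to 30.8 in ACLYKO and 7.62 to 10.8 in WT. It was carried by Trdc (34.6, 65.4 and 87.9 against 10.5, 16 and 20.4 TPM) and Klrd1 (10.1, 33.7 and 23.8 against 4.03, 5.45 and 7.61), both called, while the defining NK genes Ncr1 and Klrb1c reached no more than 0.359 and 0.237 TPM. The 2 CD8 T cell markers summed to 10.1 to 12.1 TPM in GLUT3KO, 3.98 to 8.71 in ACLYKO and 11.6 to 13.0 in WT, and 1 was called higher in GLUT3KO. The part of these cell types in the Th1 and cytotoxic difference was not tested.

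Many surface molecules of activated and regulatory T cells were also higher in GLUT3KO. Of 18 tested regulatory T cell genes 12 were called higher in GLUT3KO and 0 in ACLYKO (median 0.91), and of 16 coinhibitory and exhaustion genes 7 and 0. With median-ratio scaling the last counts were 7 and 3, and without ACLYKO replicate 1 they were 8 and 1. Those of all 14229 tested genes were 3117 and 2882 in the former setting and 3824 and 3458 in the latter. Tnfrsf9 (4-1BB), a costimulatory receptor, was at 303, 361 and 437 TPM against 23.3, 30.3 and 25.3 (log2 difference 3.74 ± 0.16, adjusted p = 3.64e-10). Nt5e (CD73), the ectoenzyme that makes adenosine from AMP, was at 271, 348 and 315 TPM against 20.6, 20.0 and 15.1 (log2 difference 4.0 ± 0.21, adjusted p = 2.75e-09), and here WT resembled ACLYKO at 19.8 ± 3.99. Il2ra, the high-affinity chain of the interleukin-2 receptor, was at 1307, 1021 and 1108 against 813, 607 and 564 TPM (0.8, adjusted p = 0.000507), in the group with less Il2. Foxp3 was scarce, at 1.37, 1.18 and 1.43 TPM against 0.881, 0.479 and 0.325 (0.59, adjusted p = 0.0328), and its call was lost with median-ratio scaling. Among inhibitory receptors and ligands, Cd274 (PD-L1) was at 301, 158 and 199 TPM against 42.5, 46.8 and 41.3 (2.26, adjusted p = 3.63e-07). Havcr2 (TIM-3) was at 16.9, 13.8 and 28.6 TPM against 3.67, 1.29 and 1.52 (2.73, adjusted p = 1.02e-05). For Ctla4, which competes with CD28 for its ligands, both knockouts were below WT (1275 ± 173), with 788, 1002 and 989.9 TPM in GLUT3KO and 409, 533 and 491 in ACLYKO (0.95, adjusted p = 0.000151). Pdcd1 (PD-1) and Lag3 were not called (adjusted p = 0.0978 and 0.134). Pdcd1 was called higher in ACLYKO without ACLYKO replicate 1 (-0.96, adjusted p = 8.06e-05) and with median-ratio scaling (-0.73, adjusted p = 0.00871). Lag3 was called higher in GLUT3KO without ACLYKO replicate 2 (1.85, adjusted p = 0.0361) or 3 (1.79, adjusted p = 0.0481).

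Of 20 tested T cell receptor and costimulation genes 10 were called higher in GLUT3KO and 2 in ACLYKO (median 0.54). Those 2 were Trat1 and Cd40lg. Trat1, an adaptor of the T cell receptor, was at 0.862, 0.831 and 0.915 TPM in GLUT3KO and 33.6, 42.4 and 46.4 in ACLYKO, with WT between them at 6.65, 11 and 9.02 (log2 difference -4.47 ± 0.21, adjusted p = 1.26e-09). Cd40lg, the helper ligand for B cells and dendritic cells, was at 155, 134 and 146 against 923, 1102 and 971 TPM, WT again in between at 614, 474 and 425 (log2 difference -2.78 ± 0.16, adjusted p = 6.08e-09). Cd28, the main costimulatory receptor, had the reverse order, at 1763, 1846 and 1944 TPM in GLUT3KO, 355, 457 and 393 in ACLYKO and 948, 930.0 and 817 in WT (log2 difference 2.21 ± 0.13, adjusted p = 9.29e-09). Genes of resting T cells were split. Il7r, the interleukin-7 receptor, was at 113, 117 and 133 TPM in GLUT3KO and 7.11, 7.36 and 6.43 in ACLYKO (log2 difference 3.93 ± 0.14, adjusted p = 9.97e-11), and WT had 11.1, 8.32 and 8.92, so GLUT3KO alone was high. Satb1 and Ccr7 were higher in GLUT3KO as well (2.18, adjusted p = 4.76e-07, and 2.37, adjusted p = 0.000444), and S1pr1 was higher in ACLYKO (-1.22, adjusted p = 0.000292).

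Matrix and TGF-beta pathway genes were mostly higher in GLUT3KO. Of 14 tested matrix and adhesion genes 11 were called higher in GLUT3KO and 1 in ACLYKO (median 2.74), and of 18 TGF-beta pathway genes 11 and 2 (median 0.89). Both lists hold Col4a1 and Col4a2, which encode chains of the type IV collagen of basement membranes. They lie head to head at chr8:11198423-11312889 (minus strand) and chr8:11312805-11449287 (plus strand), so their annotated starts overlap, and the strand setting of the counting is not stated. Col4a1 was at 55.9, 57.3 and 100.3 TPM in GLUT3KO and 0.181, 0.364 and 0.297 in ACLYKO (log2 difference 5.76 ± 0.21, adjusted p = 1.07e-10). Col4a2 was at 79.7, 55.1 and 115 TPM in GLUT3KO and 0.0383, 0.425 and 0.297 in ACLYKO (log2 difference 6.02 ± 0.22, adjusted p = 1.29e-10). WT was also under 1 TPM on average, with 0.577 ± 0.307 and 0.503 ± 0.251 (SD, n = 3). The metalloproteinase inhibitor Timp1 was at 339, 224 and 218 TPM against 19.6, 10.4 and 9.32 (4.25, adjusted p = 1.07e-08). The laminin chain Lamc1, another basement membrane part, was at 428, 253 and 352 TPM against 56.8, 38.4 and 34 (2.97, adjusted p = 7.43e-07). GLUT3KO was above WT for both, whose WT means were 56.3 and 47.9 TPM. Fibronectin (Fn1) was the exception, at 0.435, 0.20 and 0.356 TPM in GLUT3KO and 2.96, 3.51 and 3.06 in ACLYKO (-1.65, adjusted p = 7.85e-07). The TGF-beta receptor gene Tgfbr1 stood at 138, 123 and 119 against 34.7, 32.8 and 32.5 TPM (1.89, adjusted p = 1.97e-07). Smad3, which carries the signal of that receptor to the nucleus, was at 52.2, 48.4 and 45.8 against 13.6, 7.32 and 6.73 TPM (2.34, adjusted p = 5.22e-07). Summed stromal markers, 10 genes, were 30.7 to 35.2 TPM in GLUT3KO, 8.23 to 9.33 in ACLYKO and 17.3 to 22.3 in WT, and 3 of the 5 tested, Lum, Dcn and Pecam1, were called higher in GLUT3KO. Lum, a matrix proteoglycan, was at 12, 16.2 and 11.6 against 0, 0.454 and 0.769 TPM. Other fibroblast genes were near 0: Pdgfra was at 0.12, 0.108 and 0.111 in GLUT3KO and 0 in ACLYKO, Col1a2 at 0.0382, 0.0513 and 0.055 and 0, 0.0328 and 0, and Postn at 0 in all GLUT3KO libraries. The part of such cells in the matrix difference was not tested.

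Most type I interferon response genes were higher in ACLYKO, while interferon-gamma response genes were more often called higher in GLUT3KO. Of 24 tested type I response genes 17 were called higher in ACLYKO and 1 in GLUT3KO (median -1.40), and of 17 interferon-gamma response genes 3 and 8 (median 0.62). The fit of the 6 libraries alone called 11 type I genes higher in ACLYKO, where 738 of all 14229 tested genes were. Both programs are read from related promoter elements, the interferon-stimulated response element (ISRE) among them. Genes of both directions carry its letters, as the following stretches from before their start sites show. They are from RefSeq promoter windows on GRCm38.p6, written 5′ to 3′ on the strand of the gene, with matches to GAAANNGAAA on either strand in capitals.
Ifit1: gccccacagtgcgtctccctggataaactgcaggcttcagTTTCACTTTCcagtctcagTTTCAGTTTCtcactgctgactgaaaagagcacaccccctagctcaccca
Isg15: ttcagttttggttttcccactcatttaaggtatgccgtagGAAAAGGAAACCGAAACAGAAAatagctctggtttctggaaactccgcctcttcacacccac
Rsad2: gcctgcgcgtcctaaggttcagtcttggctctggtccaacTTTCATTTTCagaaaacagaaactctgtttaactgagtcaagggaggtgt
Gbp2: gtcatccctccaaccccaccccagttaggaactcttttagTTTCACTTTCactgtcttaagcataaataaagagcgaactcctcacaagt

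The stretches lie at chr19:34640745-34640853 (plus strand), chr4:156200835-156200936 (minus strand), chr12:26456523-26456612 (minus strand) and chr3:142620564-142620653 (plus strand). Ifit1, Isg15 and Rsad2 were higher in ACLYKO and Gbp2 in GLUT3KO, and the 3 matches of Isg15 overlap one another. Of the 14 type I genes higher in ACLYKO that had a window of 300 bases, 8 held the motif, as did 1 of 3 uncalled ones and Ddx58, which was higher in GLUT3KO. Of the interferon-gamma genes with a window it was held by 4 of 6 higher in GLUT3KO, 1 of 2 higher in ACLYKO and 4 of 6 uncalled. Among all 9360 tested genes with a window the share was 3.85%. A match is a description of these letters and not evidence of binding.

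Irf7, a transcription factor that amplifies type I interferon responses, was at 0.309, 0.60 and 0.372 TPM in GLUT3KO and 9.71, 21.1 and 16.8 in ACLYKO (log2 difference -3.5 ± 0.22, adjusted p = 1.57e-08). WT had 0.0646, 0.047 and 0.0735 TPM. Isg15, a ubiquitin-like modifier, was at 2.64, 8.5 and 4.94 TPM against 23.9, 132 and 154 (log2 difference -3.76 ± 0.66, adjusted p = 0.000378), with WT at 1.98, 3.84 and 4.61. ACLYKO replicate 1 was the lowest of its group for both genes and still above all GLUT3KO libraries. Ifit1, which binds foreign RNA, was at 0.793, 0.948 and 1.09 TPM against 4.87, 4.44 and 3.55 (-1.44, adjusted p = 9.93e-08). Rsad2 (viperin), an antiviral enzyme, was at 0.0263, 0.118 and 0.114 TPM against 3.53, 2.46 and 2.19 (-1.76, adjusted p = 2.00e-08), and here ACLYKO replicate 1 was the highest library for both. Ifi44, Oasl2, Oasl1, Xaf1, Mx2 and Trim30a were called in the same direction, the first 5 of them at no more than 6.28 TPM in any library and Trim30a at 11.1, 11.4 and 11.1 against 33.3, 35.7 and 31.6. The viral RNA sensor Ddx58 (RIG-I) was the only member higher in GLUT3KO, at 10.7, 9.79 and 12.4 TPM against 4.22, 4.45 and 3.66 (1.22, adjusted p = 0.000119). The signal transducers Stat2 and Irf9 were not called (adjusted p = 0.548 and 0.526).

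Of the interferon-gamma response genes, the transcription factor Irf1 was at 55.5, 43 and 49.1 TPM in GLUT3KO and 23.3, 10.2 and 8.86 in ACLYKO (log2 difference 1.85 ± 0.29, adjusted p = 0.000134). The guanylate-binding protein gene Gbp2 was at 182, 289 and 247 TPM against 107, 62.3 and 54.9 (1.7, adjusted p = 0.000235), and Gbp3 and Gbp7 had the same order (1.04, adjusted p = 0.00128, and 1.0, adjusted p = 0.000147). For these 4 genes ACLYKO replicate 1 was the highest ACLYKO library. Nlrc5, the transactivator of MHC class I genes, was at 11, 15.1 and 13.2 against 3.09, 4.4 and 3.85 TPM (1.56, adjusted p = 2.95e-06). Gbp6 was among the 3 members that went the other way, at 0.347, 0.586 and 0.707 TPM in GLUT3KO and 2.99, 2.91 and 2.14 in ACLYKO (-1.25, adjusted p = 1.55e-06). Of 8 tested MHC class II genes 1, H2-Ab1, was called higher in GLUT3KO and 2 in ACLYKO (median -0.37). The shares of all tested genes were 25.2% and 15.2%. H2-Ab1 was at 29.8, 33 and 46.4 TPM in GLUT3KO, 2.18, 3.23 and 3.83 in ACLYKO and 30.7, 38.1 and 35.7 in WT, so here ACLYKO was low (log2 difference 3.19 ± 0.20, adjusted p = 1.89e-08). Its chaperone, the invariant chain Cd74, was at 55.3, 109 and 67.1 TPM against 211, 461 and 592, higher in ACLYKO (log2 difference -2.37 ± 0.32, adjusted p = 4.07e-05).

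**Figure D3:**
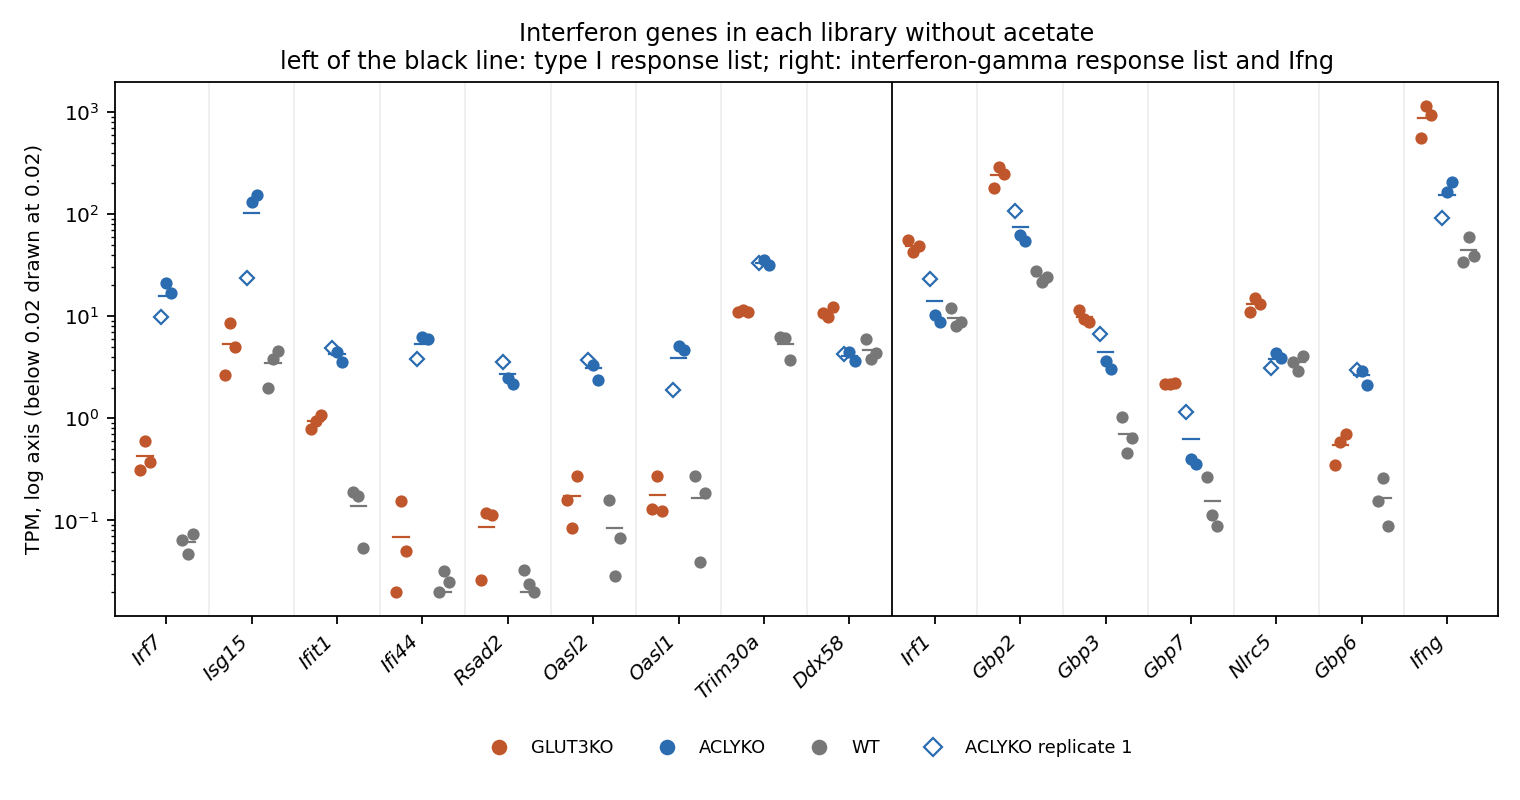
TPM on a log axis of 9 type I interferon response genes (left of the black line) and of 6 interferon-gamma response genes and Ifng (right) in the 3 GLUT3KO (orange), 3 ACLYKO (blue, replicate 1 as an open diamond) and 3 WT (grey) libraries, with group means as lines. Except for Ddx58 the genes on the left are higher in ACLYKO, and except for Gbp6 those on the right are higher in GLUT3KO. The interferon-gamma list holds 3 genes called higher in ACLYKO, of which only Gbp6 is plotted.

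Growth and DNA replication genes were higher in ACLYKO. Of 28 tested MYC and ribosome biogenesis genes 17 were called higher in ACLYKO and 0 in GLUT3KO (median -0.87), and of 30 S phase genes 22 and 0 (median -1.21). The fit of the 6 libraries alone called 5 and 15 of them higher in ACLYKO, where 738 of all 14229 tested genes were. Myc, the growth-promoting transcription factor, was at 211, 118 and 174 TPM in GLUT3KO and 483, 665 and 545 in ACLYKO (log2 difference -1.77 ± 0.21, adjusted p = 1.02e-05). WT lay between at 425, 302 and 348 TPM. Nop56, a core protein of the ribosomal RNA methylation machinery, was at 174, 120.1 and 173 TPM against 354, 407 and 355 (-1.27, adjusted p = 1.97e-05). The replication licensing gene Cdc6 was at 7.52, 5.36 and 6.35 TPM against 26.9, 33.2 and 29.4 (log2 difference -2.06 ± 0.24, adjusted p = 9.41e-06). The helicase subunit Mcm3 was at 62.5, 53 and 59 TPM against 184, 187 and 175 (-1.63, adjusted p = 1.82e-05). Rrm2, the subunit that sets the supply of deoxynucleotides, was at 27.1, 35.5 and 26 against 95.8, 184 and 166 TPM (-2.25, adjusted p = 2.89e-05). For Cdc6, Mcm3 and Rrm2, WT means of 8.52, 90.3 and 48.4 TPM were nearer to GLUT3KO. Of 26 G2 and M phase genes 2 were called higher in ACLYKO, Birc5 and Cdk1, and 0 in GLUT3KO. Without ACLYKO replicate 1 Birc5 was not called (adjusted p = 0.0601), and the call of Cdk1 was lost on leaving out any of 4 other libraries. The division markers Mki67 and Top2a were not called, and ACLYKO replicate 1 was their highest library.

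Stress response lists leaned to GLUT3KO. Of 18 tested p53 target genes 12 were called higher in GLUT3KO and 2 in ACLYKO (median 0.96). The death receptor Fas was at 28.3, 36.6 and 31.5 TPM against 9.76, 11.3 and 11.4 (1.48, adjusted p = 6.85e-06). The pro-apoptotic Pmaip1 (NOXA) was at 159, 179.8 and 174 TPM against 71.9, 31.5 and 31.6 (2.01, adjusted p = 9.69e-06). The cell cycle inhibitor Cdkn1a (p21) was at 486, 671 and 597 TPM against 97.4, 275 and 276 (log2 difference 1.57 ± 0.32, adjusted p = 0.0013), with ACLYKO replicate 1 the lowest. Gadd45a and Plk2 were the exceptions (-1.2, adjusted p = 0.00046, and -0.71, adjusted p = 0.00227). Of 16 targets of NRF2, the factor that answers oxidants, 8 were called higher in GLUT3KO and 1 in ACLYKO (median 0.55). Sulfiredoxin (Srxn1) was at 53.7, 71.6 and 57.6 TPM against 5.84, 10.6 and 10.3 (2.67, adjusted p = 9.53e-08). Glutathione reductase (Gsr) was at 90.6, 89.2 and 95.8 TPM against 14.2, 27.6 and 25.3 (2.04, adjusted p = 2.14e-06). GLUT3KO was above WT for both genes. Nfe2l2, the gene of NRF2 itself, was at 165, 114 and 136 TPM against 43.6, 26 and 24.4 (2.14, adjusted p = 5.58e-06). Of 22 unfolded protein response genes 9 were called, all higher in GLUT3KO (median 0.44). Dnajb9, a chaperone of the endoplasmic reticulum, was at 465, 370.0 and 415 TPM against 117, 136 and 131 (1.69, adjusted p = 1.20e-06). The sensor Ern1 (IRE1) was at 71.6, 54.4 and 77 TPM against 20.4, 19.8 and 16.7 (1.77, adjusted p = 6.02e-05), and for both genes WT overlapped ACLYKO. Hspa5, the main chaperone of that compartment, was not called (adjusted p = 0.218).

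Cholesterol synthesis genes leaned to ACLYKO and LXR targets to GLUT3KO. Of 24 tested genes of cholesterol synthesis and uptake 10 were called higher in ACLYKO and 2 in GLUT3KO (median -0.53), and 16 and 2 without ACLYKO replicate 1. Without that library the counts of all 14229 tested genes were 3458 and 3824. Of 8 targets of LXR, the receptor that senses oxysterols and drives cholesterol export, 5 were called higher in GLUT3KO and 0 in ACLYKO (median 0.78). Cyp51, the sterol demethylase, was at 20.5, 18.4 and 21.2 TPM in GLUT3KO and 54.3, 56.1 and 51.9 in ACLYKO (log2 difference -1.39 ± 0.13, adjusted p = 9.80e-07). Its WT mean of 28.5 TPM lay between the knockouts. Idi1, which isomerizes the isoprenoid building block, was at 18.8, 20.9 and 23 TPM against 44.8, 69.9 and 66.2 (-1.47, adjusted p = 6.23e-06). Sqle, the squalene epoxidase, was not called (adjusted p = 0.147), but was called higher in ACLYKO without ACLYKO replicate 1 (-0.61, adjusted p = 0.00103) and with median-ratio scaling (-0.52, adjusted p = 0.00829). The cholesterol exporter Abca1 was at 32, 31.1 and 37.2 TPM against 7.13, 9.58 and 8.5 (1.88, adjusted p = 1.69e-07). Abcg1, which also exports cholesterol, was at 34.2, 45.3 and 43.8 TPM against 5.54, 10.2 and 9.15 (2.2, adjusted p = 1.79e-07). For both, WT lay between the knockouts.

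Plin2, a coat protein of lipid droplets, was at 50.3, 59.1 and 41.4 TPM in GLUT3KO and 0.627, 1.9 and 1.91 in ACLYKO (log2 difference 4.4 ± 0.21, adjusted p = 1.16e-09). WT was between the knockouts at 15.1, 18.1 and 23 TPM. The triglyceride-forming enzyme Dgat2 had the reverse order, at 1.06, 1.55 and 1.79 TPM against 3.73, 13.6 and 15.9 (-2.1, adjusted p = 0.000235). Of 15 fatty acid synthesis genes 1 was called higher in GLUT3KO and 2 in ACLYKO (median -0.12), shares below those of all tested genes in this fit. Fasn, the fatty acid synthase, was at 91, 85.1 and 96.9 against 50.3, 159 and 137 TPM and Acaca, the carboxylase before it, at 16.1, 13 and 17.9 against 13.1, 26.2 and 20.9. Neither was called (adjusted p = 0.657 and 0.276). With ACLYKO replicate 1 left out, Fasn differed by -0.69 (adjusted p = 6.97e-05) and Acaca by -0.56 (adjusted p = 0.0101), both higher in ACLYKO, and Acaca was also called with median-ratio scaling (-0.46, adjusted p = 0.025). Without that library the list had 8 genes called higher in ACLYKO, where 3458 of all 14229 tested genes were.

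Glycolysis genes went both ways, with 7 of 23 called higher in GLUT3KO and 9 in ACLYKO (median -0.19), and 6 and 14 without ACLYKO replicate 1. Aldolase C (Aldoc) was at 15.1, 15.1 and 22.8 TPM in GLUT3KO and 1.42, 4.17 and 2.74 in ACLYKO (2.35, adjusted p = 2.24e-06). Phosphoglycerate kinase (Pgk1) was at 1177, 1460.4 and 1517 TPM against 301, 811 and 787 (1.25, adjusted p = 0.00199). The lactate dehydrogenase genes were both higher in ACLYKO. Ldha was at 166, 177 and 201 TPM against 271, 477 and 491 (-1.14, adjusted p = 0.000142). Ldhb was at 19.4, 11 and 13.2 TPM against 129.5, 65.6 and 61.6, highest in ACLYKO replicate 1 (-2.43, adjusted p = 3.40e-06). Pfkfb3, which makes an activator of phosphofructokinase, was at 4.6, 4.9 and 7.46 against 30.8, 15.8 and 13.9 TPM (-1.61, adjusted p = 6.25e-05). The pentose phosphate list had 6 of 10 genes higher in ACLYKO and 0 in GLUT3KO (median -0.47), Rpia, Prps1 and Prps2 among them. The tricarboxylic acid cycle list had 6 of 30 higher in ACLYKO and 1 in GLUT3KO, and the respiratory chain list 10 of 51 and 2. Of all tested genes 15.2% were higher in ACLYKO and 25.2% in GLUT3KO. Both lists were thus close to the former share and below the latter. With median-ratio scaling 8 of 30 and 20 of 51 genes of these lists were higher in ACLYKO, where 2882 of all 14229 tested genes were. Without ACLYKO replicate 1 the genes higher in ACLYKO numbered 10 of 30 and 28 of 51, where 3458 of all 14229 tested genes were.

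Nucleotide genes held a wide gap in both directions. Upp1, uridine phosphorylase, which releases ribose phosphate from uridine, was at 177, 217 and 179.9 TPM in GLUT3KO and 0.924, 3.69 and 3.42 in ACLYKO (log2 difference 5.81 ± 0.26, adjusted p = 7.32e-10), and WT had 69.6, 76.5 and 66.9. ACLYKO was thus low and GLUT3KO high around WT. Ctps, which makes CTP from UTP, was at 53.7, 48.2 and 64.5 TPM against 177, 214 and 183 (log2 difference -1.77 ± 0.13, adjusted p = 1.02e-07), and the salvage kinase Dck at 7.1, 12.4 and 9.64 against 21.3, 43.5 and 45.1 (-1.77, adjusted p = 0.000101). Of 15 tested genes of the list 2 were called higher in GLUT3KO, Upp1 and Nt5e, and 7 in ACLYKO (median -0.47), or 11 without ACLYKO replicate 1. Without that library 3458 of all 14229 tested genes were higher in ACLYKO.

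Further genes had very large differences. Higher in GLUT3KO was Atp6v0d2, a subunit of the proton pump of lysosomes, at 168, 159 and 152 TPM against 2.85, 1.68 and 2.61 (log2 difference 5.59 ± 0.16, adjusted p = 8.36e-12). Map2k6, a kinase that activates p38, was at 96.7, 72.1 and 87 TPM against 1.3, 0.859 and 0.87 (log2 difference 5.42 ± 0.18, adjusted p = 4.60e-11). WT means were 15.6 and 2.39 TPM. The transcription factor Foxq1 was at 75.8, 44.7 and 51 TPM against 0.88, 0.701 and 0.454 (5.09, adjusted p = 3.64e-10). Serpinf1, a secreted serpin, was at 119, 84.1 and 109 TPM against 1.24, 2.86 and 2.7 (5.03, adjusted p = 6.30e-10), and WT was between at 57.4 ± 9.63. Fam114a1, Dpysl3, Srgap3 and Itpripl2 were also among the largest, with differences of 5.75, 4.58, 4.55 and 4.54. Cd5l, a secreted protein that tempers Th17 cells, was at 1.08, 1.05 and 0.988 TPM in GLUT3KO and 66, 111 and 101 in ACLYKO, with WT at 15.2, 22.4 and 24.7 (log2 difference -5.49 ± 0.27, adjusted p = 1.59e-09). Serpinc1, the antithrombin gene, was at 0.384, 0.731 and 0.138 against 6.61, 29.1 and 21.3 TPM (log2 difference -3.62 ± 0.37, adjusted p = 2.47e-06). Mitochondrial transfer RNA genes, TrnG, TrnK, TrnI, TrnT and TrnW among them, were also far higher in ACLYKO, with their highest level in ACLYKO replicate 1: TrnI was at 7053, 221 and 89.4 TPM in ACLYKO and 53.4, 20.7 and 41.7 in GLUT3KO, and its difference was -3.82 with that library and -1.94 (adjusted p = 0.0298) without it. Without GLUT3KO replicate 2 neither TrnG nor TrnI was called.

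**Figure D4:**
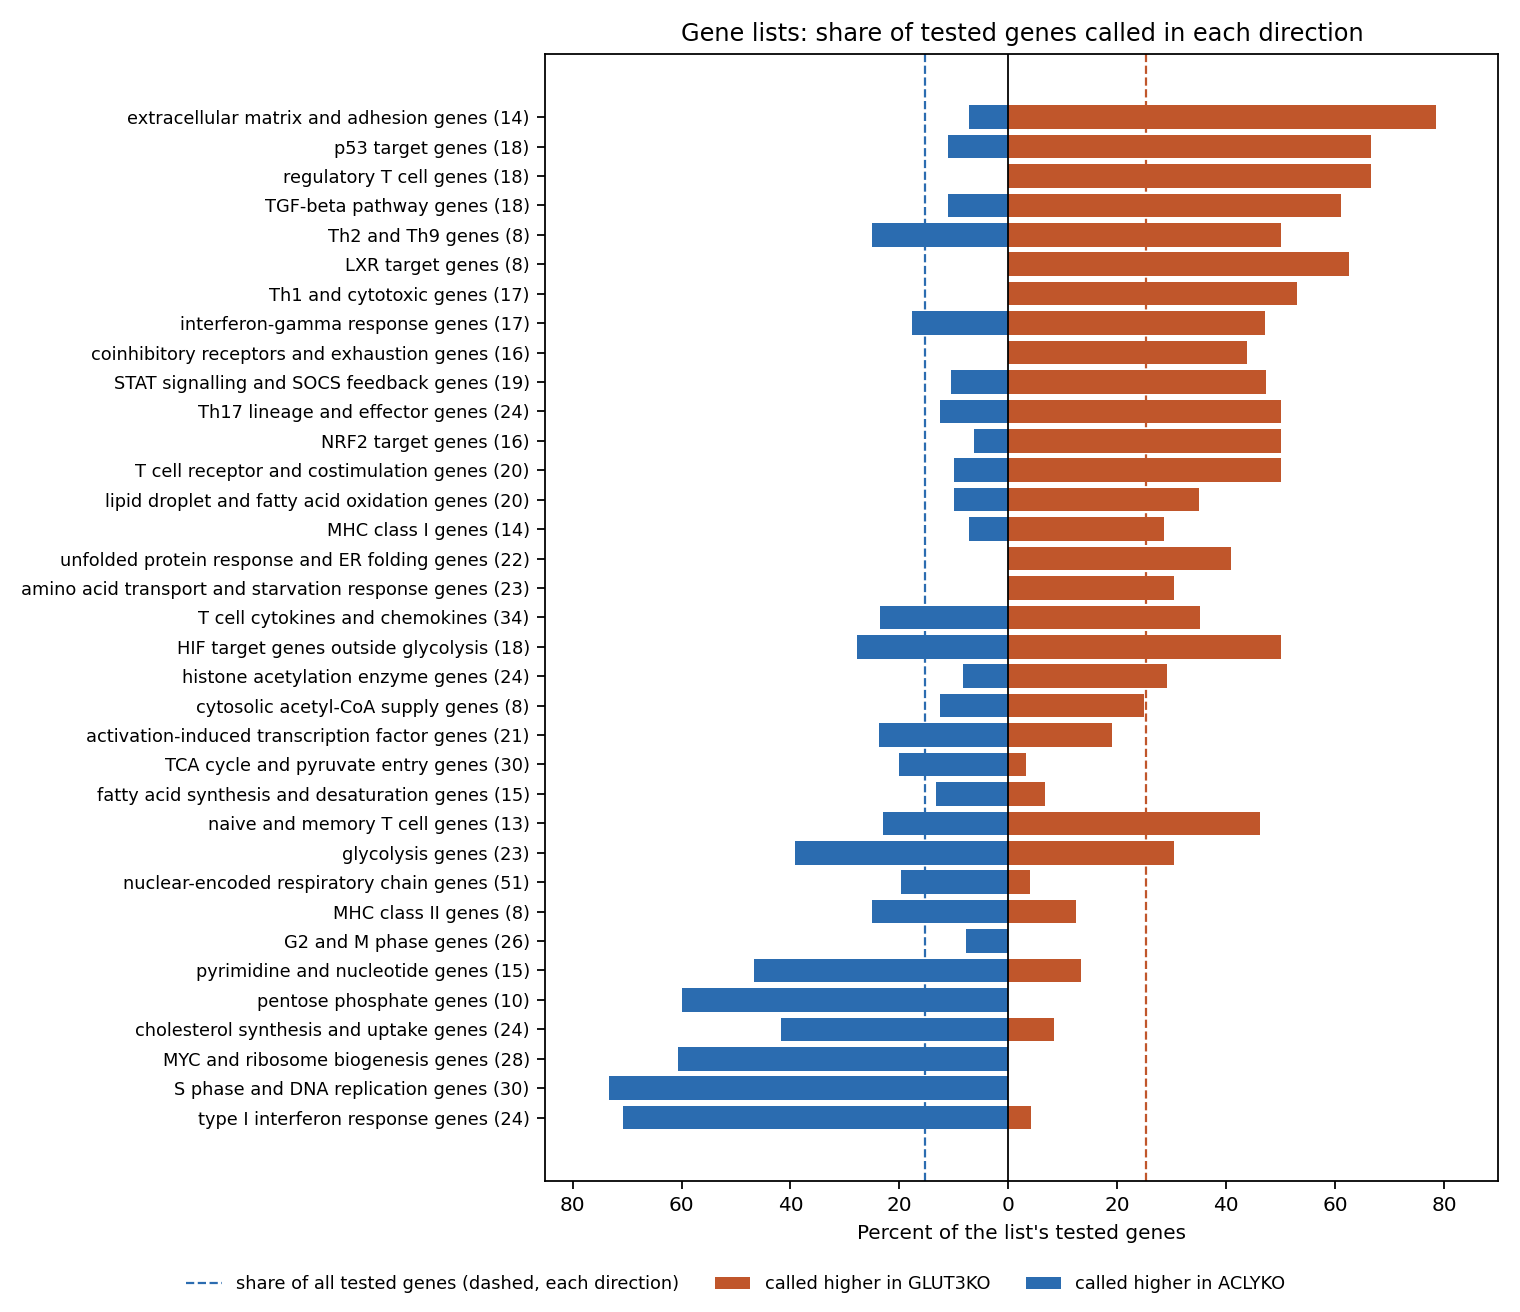
For each gene list with at least 8 tested genes (number in brackets) the bars give the percent of its tested genes called higher in GLUT3KO (orange, right) and in ACLYKO (blue, left), ordered by the list's median difference. Dashed lines mark the shares of all tested genes, 25.2% and 15.2%. Matrix, p53 and regulatory T cell lists have the longest bars to the right, and S phase, type I interferon and MYC lists the longest to the left.

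The same contrast was made in the 6 libraries with acetate, where 5360 genes were called (37.7%), 2513 higher in GLUT3KO (17.7%) and 2847 in ACLYKO (20.0%). This split also depends on scaling, as median-ratio scaling gave 2941 higher in GLUT3KO and 2588 in ACLYKO. The difference between both contrasts was itself called for 693 genes (4.87%), 542 with a lower (3.81%) and 151 with a higher value (1.06%) with acetate. These numbers were 404 and 288 with median-ratio scaling and 367 and 246 with quantile normalization. Il17f changed sides. With acetate it was at 846, 683 and 836 TPM in GLUT3KO and 293, 299 and 354 in ACLYKO, so that the contrast moved by 2.69 (adjusted p = 0.000268). Il10 was not called with acetate (adjusted p = 0.461), at 266, 307 and 349 against 193, 285 and 299 TPM (change of the contrast 2.62, adjusted p = 0.000749). Irf7 was likewise not called with acetate, at 0.642, 0.894 and 0.801 TPM in GLUT3KO and 0.757, 1.6 and 0.779 in ACLYKO with acetate (3.32, adjusted p = 8.25e-05), nor were Ifi44, Rsad2, Oasl2 and Ifit1. Il2 stayed higher in ACLYKO, at 7955, 17081 and 15881 TPM against 2444, 2436 and 2348, but by less (2.45, adjusted p = 0.00535). Cd28 was at 1482, 1310.1 and 1329 against 885, 750.1 and 877 TPM with acetate (-1.49, adjusted p = 0.000443). For Acly, Ifng, Myc and Cdc6 the change of the contrast was not called (adjusted p = 0.802, 0.775, 0.555 and 0.74).

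**Figure D5:**
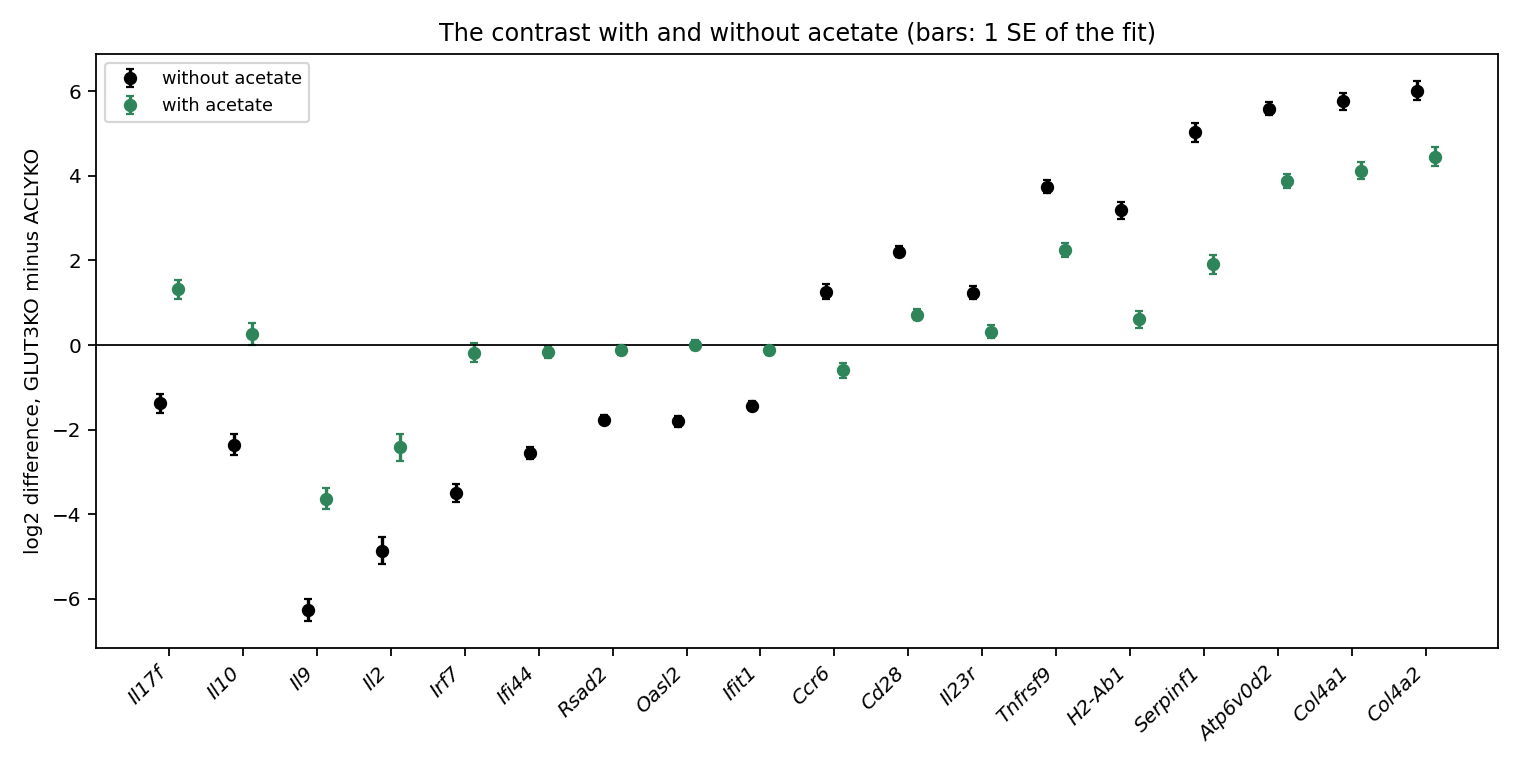
Log2 differences GLUT3KO minus ACLYKO of 18 genes without acetate (black) and with acetate (green), with bars of 1 standard error of the fit (3 against 3 libraries each). The 18 genes were picked from the named genes whose contrast changed with acetate. S1pr1 and Ahr, whose differences were larger with acetate, are not shown, nor are Cd4 and Acss1, whose differences were larger with the opposite sign. For all plotted genes the points with acetate are nearer to zero, though that of Il17f only slightly, as it lies on the other side at a similar size. Of the other points those of Il10 and Ccr6 change sign, as does Oasl2 by a trace.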

How the data were processed

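RNA of 18 mouse Th17 libraries, of which 6 are compared here, was sequenced as stranded single-end reads per the labels' protocols. The deposited table gives TPM per gene as made by the authors, an other unit than counts, and its decimal commas were read as decimal points. The submitters' processing notes name the build GRCm38.p6, the aligner STAR 2.7.2b, the counter featureCounts 1.6.4 and, for reads, bcl2fastq 2.20.0.422 with cutadapt, without order, and also DESeq2. Of 45703 genes the 14229 with at least 1 TPM in at least 3 libraries were tested on log2(TPM + 1) with limma 3.58.1 in R 4.3.3 over all 18 libraries, 6 groups, with robust variances, and p-values were adjusted by Benjamini-Hochberg at 0.05. The test was checked on simulated data. Pseudocount, filter, scaling, weights, blocking and left-out libraries were varied.

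Named genes are the targets, fixed cytokine and metabolic genes, up to 4 members of each list with the smallest adjusted p, and the 12 largest differences each way whose libraries did not overlap and whose higher group mean was at least 5 TPM, leaving out unnamed models. Other genes were chosen for their known role after their values were seen. Members and lists were chosen with earlier results of these data known, and the list counts under other settings were added after seeing the data. Promoter windows came from RefSeq on GRCm38.p6.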

Additional observations from a re-analysis of the deposited data

Results flagged for a closer look

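For 38 of 144 genes named above, the GLUT3KO minus ACLYKO difference with acetate departed from that without acetate by limma's test of the difference itself (Benjamini-Hochberg adjusted p from 1.67e-05 to 0.047 over all tested genes, 3 libraries in each of the 4 groups). Of all 14229 tested genes 693 (4.87%) were called by this test. Many named genes were chosen for their difference without acetate, and those libraries also enter the test. The choice thus favors differences that are smaller with acetate. In what follows the number after a gene is the log2 change of the contrast on adding acetate.

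Genes higher in GLUT3KO without acetate and less so with it were Serpinf1 (-3.13), H2-Ab1 (-2.59), Aldoc (-2.05), Il6ra (-1.95), Atp6v0d2 (-1.71), Fam114a1 (-1.65), Col4a1 (-1.64), Tbx21 (-1.61), Col4a2 (-1.56), Tnfrsf9 (-1.50), Cd28 (-1.49), Abca1 (-1.48), Upp1 (-1.46), Plin2 (-1.35), Smad3 (-1.16), Srgap3 (-1.05), Dpysl3 (-0.92) and Il23r (-0.92). Genes higher in ACLYKO without acetate and less so with it were Gbp6 (0.92), Mx2 (0.97), Ifit1 (1.31), Oasl1 (1.31), Xaf1 (1.31), Rsad2 (1.65), Cd74 (1.70), Ifi44 (2.40), Il2 (2.45), Il9 (2.63) and Irf7 (3.32), most of them members of the type I interferon list. The difference had the opposite sign with acetate for Ighm (-2.21), Ccr6 (-1.86), Acss1 (-1.16), Cd4 (-0.98), Oasl2 (1.81), Il10 (2.62) and Il17f (2.69). A larger difference with acetate, in the same direction, was found for S1pr1 (-1.22) and Ahr (-1.21), both higher in ACLYKO.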

How the results depend on the processing

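The count of 5746 called genes was 2440 in a fit of the 6 libraries alone, 10082 with array weights, whose estimation stopped before it converged, 8845 with the axis score as a covariate and 2718 where a log2 difference of at least 1 was also required. It ran from 4669 to 7282 on leaving out single libraries, the highest without ACLYKO replicate 1. Of 127 called genes named here, none changed sign under any alternative, and 107 were still called in the fit of the 6 libraries. Foxp3 lost its call with median-ratio scaling, quantile normalization, the GC and length correction, and without GLUT3KO replicate 1 or 3 or ACLYKO replicate 2 or 3. Cdk1 lost it without the same 4 libraries, Birc5 without GLUT3KO replicate 1 or ACLYKO replicate 1, and TrnG, TrnI and Cd14 without GLUT3KO replicate 2. The share of called genes higher in GLUT3KO was 62.3%, against 52.0% for median-ratio scaling, 49.4% for quantile normalization, 48.2% with the GC and length correction and 51.8% with voom on recovered reads.

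With the replicate number as a block 6404 genes were called without acetate, 5961 with acetate and 825 for the difference of the contrasts. Deviations of same-numbered libraries correlated at 0.635, 0.335 and -0.174, and 3 of 6 libraries correlated best with their own number. On the first principal axis of the deviations, replicate 1 scored positive and replicate 2 negative in every group of the series. What the numbers stand for is not stated by the labels and was not tested. The block called Slc2a3 (-0.62, adjusted p = 0.0209). It moved the respiratory chain genes higher in ACLYKO from 10 to 17 of 51, and all tested genes higher in ACLYKO from 2165 to 2488. The fit of the 6 libraries alone called 1702 of all 14229 tested genes higher in GLUT3KO and 738 higher in ACLYKO. Higher in GLUT3KO were 6 of 18 p53 targets, 5 of 22 unfolded protein response genes, 5 of 20 T cell receptor and costimulation genes and 4 of 17 interferon-gamma response genes. Higher in ACLYKO were 4 of 23 glycolysis, 2 of 10 pentose phosphate, 6 of 24 cholesterol and 3 of 51 respiratory chain genes, the last near the share of all tested genes. The sign of some uncalled genes changed. The log2 differences were -0.047 for Cd4 with median-ratio scaling, -0.14 for Cd4 and -0.048 for Slc2a1 with GC and length correction, -0.037 for Cd4 with voom on recovered reads, -0.34 for Slc2a1, 0.0067 for Stat2, 0.13 for Irf9 and 0.16 for Mki67 with array weights and -0.23 for Slc2a1, 0.14 for Irf9 and -0.0018 for Hspa5 without the libraries with a positive axis score, a setting that leaves 1 GLUT3KO and 2 ACLYKO libraries, with the spread around the lone GLUT3KO library taken from the other groups. On leaving out single libraries they ran from -0.27 to 0.46 for Slc2a1, from -0.33 to 0.13 for Irf9, from -0.91 to 0.32 for Mki67 and from -0.69 to 0.13 for Fasn. In each case the cause was not tested. Array weights called Slc2a1. Reads in genes limit precision to about 0.0428 to 0.0719 TPM for 1 read on 2000 bases, so values of that size rest on single reads.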
